A study of Sus scrofa with 2 samples.

Results

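The S100 genes encode small calcium-binding proteins, and 8 of them, S100A2, S100A4, S100A6, S100A8, S100A9, S100A10, S100A11 and S100A12, were looked up by symbol among the 31908 genes of 2 single-cell libraries of pig skin. 7 of the 8 were found and are described here, and S100A9 was not found by symbol and was not analysed here. The libraries came from the dorsal skin of healthy male farm pigs, dissociated with an enzyme kit and sorted to remove dead cells. The fresh library was made from cells that were not frozen. The cells of the cryopreserved library had been frozen in 90% fetal bovine serum (FBS) and 10% dimethyl sulfoxide (DMSO), kept in liquid nitrogen and thawed, although the protocol text in the labels describes freezing for both samples. Whether the cells of both libraries were taken from a single animal is not given in the sources used here.

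Each condition has a single library, so no test between conditions was made. Pairs of values give the fresh library first. Every interval below is a 95% interval that covers counting error only, and differences between animals, sorts and library preparations cannot be told apart from freezing. After the maxima on genes, unique molecular identifiers (UMIs) and mitochondrial RNA, 2775 fresh cells with 32274985 UMIs (median 11017 per cell) and 4223 cryopreserved cells with 36687009 UMIs (median 7945) remained. The maxima left out 1604 of 4379 fresh and 637 of 4860 cryopreserved barcodes, so they did not cut both libraries alike. These barcodes held 42.7% of fresh and 14.5% of cryopreserved S100A2 UMIs. For S100A12 the shares were 80.1% and 42.7%. The libraries shared 6 cell barcodes, 5 of them within the maxima. Keratinocyte-like cells, named like all lineages from marker genes after clustering without any S100 gene, made up 19.1% (fresh) and 25.05% (cryopreserved) of the cells. A level is given in CPM, UMIs per 1000000 UMIs of the same cells, and in droplet data a gene's lower level in a lineage cannot be divided into fewer expressing cells and less RNA per cell.

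S100 proteins carry EF-hand motifs that bind calcium and then contact partner proteins. S100A10 pairs with annexin A2, S100A11 with annexin A1, S100A4 with non-muscle myosin and S100A6 with the calcyclin-binding protein CACYBP. S100A8 and S100A12 belong to the calgranulins, known from neutrophils and from stressed epidermis, and S100A2 is known from basal epithelial cells. In mammals most of the family lies in a cluster beside the genes of the cornified envelope.

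On Sscrofa11.1, RefSeq places all 7 members on the plus strand of chromosome 4, and no other annotated gene overlaps any of them. S100A2 (ENSSSCG00000006580) spans chr4:96073496-96076825, S100A4 (ENSSSCG00000006578) chr4:96088102-96091160 and S100A6 (ENSSSCG00000021084) chr4:96098264-96099686. The calgranulins follow, with S100A8 (ENSSSCG00000006590) at chr4:96209670-96210603 and S100A12 (ENSSSCG00000032857) at chr4:96225691-96227030. S100A11 (ENSSSCG00000006610) at chr4:97233833-97239081 and S100A10 (ENSSSCG00000006612) at chr4:97261752-97272517 lie farther along. The Ensembl IDs are those deposited with the counts, and RefSeq positions were joined to them by symbol. Another reference pairs S100A2 with a different Ensembl ID, and the deposited pairing was used.

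The 200 bases before the annotated start are shown for 4 members: the rare S100A12 and S100A8, the epidermal S100A2 and the widely found S100A6, whose windows differ in base composition and in the 4 motifs searched. Bases run 5′ to 3′ on the plus strand, from RefSeq's Sscrofa11.1 sequence. Capitals mark matches on either strand to any of 4 motifs. The TATA box was searched as TATAAA and the AP-1 site as TGANTCA. The CCAAT box was searched by the letters of its name. The GC box was searched as GGGCGG. No overlap between matches was removed.
S100A12, chr4:96225491-96225690: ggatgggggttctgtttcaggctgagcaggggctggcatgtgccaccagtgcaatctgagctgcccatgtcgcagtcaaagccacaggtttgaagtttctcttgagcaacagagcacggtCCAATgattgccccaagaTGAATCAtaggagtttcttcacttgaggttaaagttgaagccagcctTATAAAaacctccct
S100A8, chr4:96209470-96209669: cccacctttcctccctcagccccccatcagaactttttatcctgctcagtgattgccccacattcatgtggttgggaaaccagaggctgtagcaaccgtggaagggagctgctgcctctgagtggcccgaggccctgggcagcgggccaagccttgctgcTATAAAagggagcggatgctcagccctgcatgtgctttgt
S100A2, chr4:96073296-96073495: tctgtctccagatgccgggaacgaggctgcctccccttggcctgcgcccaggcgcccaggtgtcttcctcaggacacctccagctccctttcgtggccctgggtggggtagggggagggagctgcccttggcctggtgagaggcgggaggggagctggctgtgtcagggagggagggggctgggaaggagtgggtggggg
S100A6, chr4:96098064-96098263: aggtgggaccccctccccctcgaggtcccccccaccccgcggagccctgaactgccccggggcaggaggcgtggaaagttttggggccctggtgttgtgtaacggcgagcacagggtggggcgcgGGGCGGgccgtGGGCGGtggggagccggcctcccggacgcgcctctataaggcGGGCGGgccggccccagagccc
The windows of S100A12 and S100A8 each held 1 TATA box, whose last base lay 10 and 35 bases before the start, and neither held a GC box. S100A12 also held 1 AP-1 site and 1 CCAAT box. S100A6 held 3 GC boxes, and S100A10, not shown, held 3. S100A4, not shown, held 1 GC box, and S100A2 held none of the 4 motifs. Of 20665 windows of this length before protein-coding genes, 8.22% held a TATA box, 4.38% an AP-1 site, 27.7% a CCAAT box and 42.4% a GC box. GC content was 50% for S100A12 and 58.5% for S100A8, and from 66.5% to 76.0% for S100A2, S100A4, S100A6 and S100A10. These are matches of letters, not binding sites.

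S100A2, the member known from basal epithelium, was nearly limited to keratinocyte-like cells. Of its 54397 UMIs in both libraries, 98.7% (98.6 to 98.8) lay in these cells. Epidermal stem-like cells had 3129 CPM (fresh) and 3041 (cryopreserved), and differentiated keratinocyte-like cells had 2917 and 2504. In the other 8 lineages the level lay between 4.94 in fresh lymphatic-like cells and 88.5 in cryopreserved mast-like cells. At least 1 S100A2 UMI was seen in 91.5% and 89.3% of keratinocyte-like cells (median depth 14856 and 9697 UMIs). Among all other cells this share was 8.42% and 8.15% (median depth 9672 and 7156). With each cell thinned to 1000 UMIs the shares were 64.1% and 65.7% against 1.26% and 1.40%.

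The few S100A2 UMIs outside keratinocyte-like cells were compared with those of KRT5, the keratin of basal keratinocytes. In keratinocyte-like cells there were between 18.4 and 21.0 S100A2 UMIs per 100 KRT5 UMIs in each class and library. Mast-like cells had 17 S100A2 and 8 KRT5 UMIs (fresh) and 24 and 4 (cryopreserved), with no more than 4 S100A2 UMIs in a cell. SMC-like cells, also with no more than 4 in a cell, had 50 and 73.6 S100A2 UMIs per 100 KRT5 UMIs. Apart from mast-like cells, lineages outside the keratinocyte-like classes ran from 18.2 (fresh lymphatic-like) to 130.6 per 100 (cryopreserved endothelial-like). In cryopreserved endothelial-like cells 68 of the 81 S100A2 UMIs lay in 1 cell, and in T- or NK-like cells 47 of 60 did. Without those cells the levels were 10.5 and 9.66 CPM. The share of free RNA and of mixed droplets in these counts was not tested.

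S100A4, a partner of non-muscle myosin, had the opposite distribution. Only 0.453% of its 96590 UMIs lay in keratinocyte-like cells (0.412 to 0.498), where the level was between 18.05 and 27.1 CPM. Mast-like cells stood highest, with 9396 CPM (fresh) and 11670 (cryopreserved), and 68 of 68 fresh cells and 98.8% of the cryopreserved ones had a UMI. Their median depth was only 2750 and 2438 UMIs. Langerhans or dendritic-like cells (2968 and 3774), T- or NK-like cells (2677 and 3069), the CD163/CD209 myeloid-like lineage (2311 and 3594) and smooth muscle (SMC)-like cells (2165 and 3438) followed. The ranges of these 4 lineages over the libraries overlap, so their order is not resolved. Cells of the clusters that no marker list named lay in the same range, with 2912 and 3292. The cells within the maxima with most S100A4 in each library, with 301 and 399 UMIs, were among these unnamed cells. Fibroblast-like cells (1368 and 1440), lymphatic-like cells (292 and 726) and endothelial-like cells (129 and 94.1) came next, each clear of its neighbour.

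S100A4 also differed between clusters of the same lineage. Among fibroblast-like clusters, the cluster led by WIF1 and NT5E had 2992 CPM (fresh) and 3667 (cryopreserved), and the CCL19 and LEPR cluster had 1866 and 2741. The MYOC and FGF10 cluster had 152 and 76.7, and there 21.3% and 18.8% of cells had a UMI, against 91.9% and 90.3% in the WIF1 cluster. The CTHRC1 cluster had 241 and 407. SMC-like cells also divided: the cluster led by HIGD1B and KCNJ8 had 3269 and 4440, and the contractile cluster led by CNN1 and MYH11 had 793 and 1752. Of the CD163/CD209 myeloid-like cells, the CD209 and C1QA cluster had 2477 and 4217, against 513 and 242 in the MARCO cluster of 13 and 44 cells. All these orders were the same in both libraries.

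**Figure D1:**
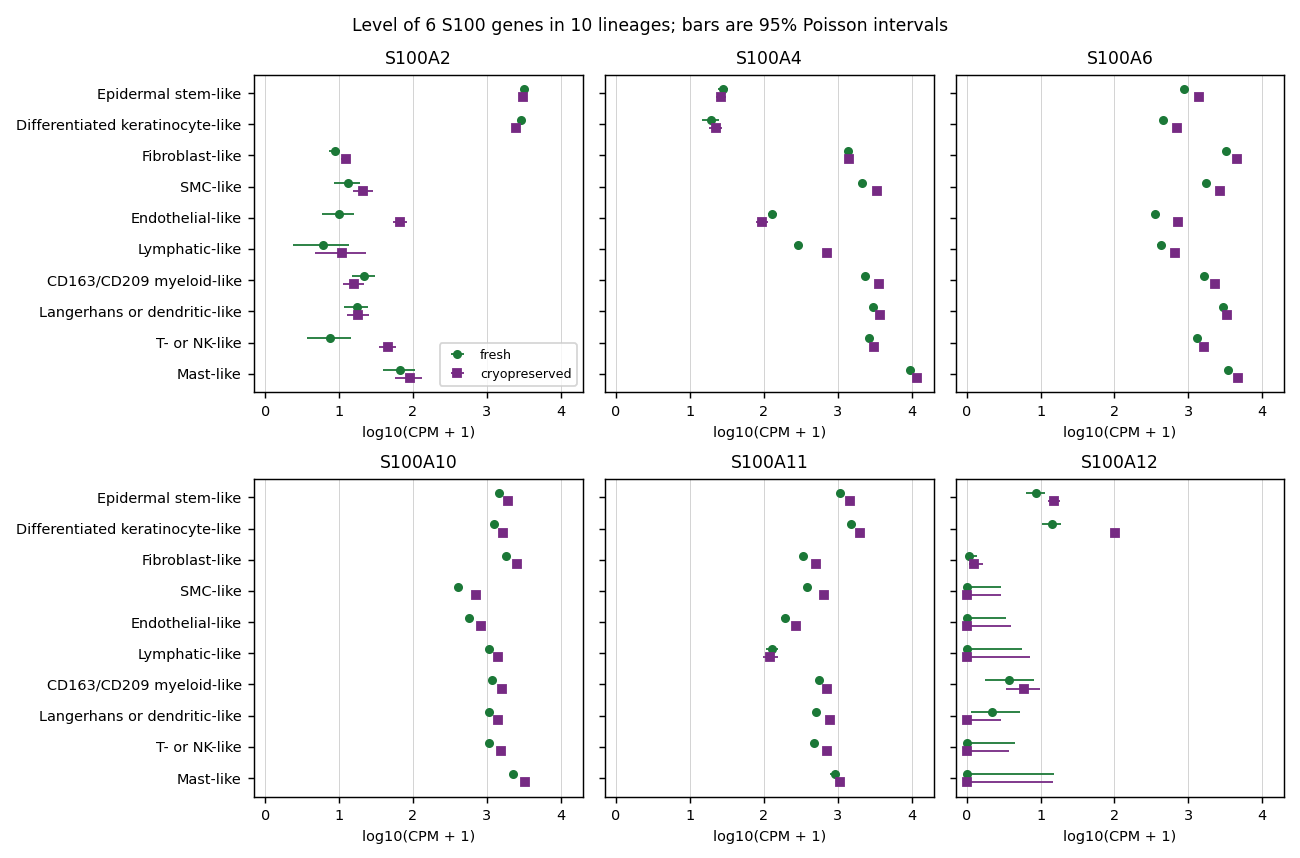
Level of 6 members in 10 lineages, as log10 of CPM plus 1, with green circles for the fresh and purple squares for the cryopreserved library and bars for 95% Poisson intervals. S100A2 and S100A12 stand highest in the top pair of rows, the keratinocyte-like lineages, where S100A4 is lowest, and S100A6, S100A10 and S100A11 are present in each of the 10.

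S100A6, or calcyclin, was found in every lineage, with UMIs in 86.8% of fresh and 88.3% of cryopreserved cells. Among the named lineages, mast-like cells (3396 and 4765 CPM) and fibroblast-like cells (3276 and 4552) were highest, with overlapping ranges. Cells of the clusters that no marker list named stood above both in each library, with 3983 CPM (fresh) and 5633 (cryopreserved). Langerhans or dendritic-like cells had 2915 and 3335, a range that overlaps that of fibroblast-like cells but not that of mast-like cells. SMC-like cells had 1718 and 2711. Endothelial-like cells were lowest with 350.5 and 716, a range that overlaps those of lymphatic-like (423 and 650) and differentiated keratinocyte-like cells (447 and 696). Among the fibroblast-like clusters the SEMA3G and PTX3 cluster had 4811 and 6812, the CTHRC1 cluster 4110 and 5343, and the MYOC cluster 1920 and 2587. The cells with most S100A6 in each library, with 373 and 655 UMIs, both lay in the SEMA3G and PTX3 cluster.

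S100A10, the annexin A2 partner, was found in most cells of every lineage, with a UMI in 90.2% of fresh and 92.7% of cryopreserved cells. Levels in the named lineages ran from 401 and 702 CPM in SMC-like cells to 2254 and 3224 in mast-like cells, and 6 lay between 1049 and 1903. The mast-like range overlaps that of fibroblast-like cells (1825 and 2542). The SMC-like range overlaps that of endothelial-like cells (565 and 832), so neither end is resolved. Cells of the clusters that no marker list named had 2511 and 3272. Within the SMC-like cells the contractile cluster had only 119 and 201 CPM, and 37.9% and 40.1% of its cells had a UMI. The HIGD1B cluster had 628 and 999. The SEMA3G cluster was again the highest of the fibroblast-like clusters with 2644 and 3462. ANXA2 itself was highest in differentiated keratinocyte-like cells (2784 and 2764). It was low in mast-like cells (253 and 380), which were among the named lineages with most S100A10.

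S100A11, the annexin A1 partner, was highest in keratinocyte-like cells, which held 53.8% of its 50923 UMIs (53.4 to 54.3). Differentiated keratinocyte-like cells had 1515 and 2025 CPM, epidermal stem-like cells 1062 and 1449, and the mast-like lineage 909 and 1062. Lymphatic-like cells had 129 and 122. ANXA1 was also highest in differentiated keratinocyte-like cells, with 4600 and 5637.

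Among keratinocyte-like cells the members did not share an order. At a finer resolution, used here after the values had been seen, 6 keratinocyte-like clusters were found. S100A2 was highest in the cluster led by MMP3 and ITGA2, with 5363 CPM in the fresh (5243 to 5485) and 5880 in the cryopreserved library (5748 to 6015). It was lowest in the cluster led by KRT1 and KRT10, keratins of the suprabasal layers, with 963 and 809. The order between these ends did not follow differentiation. The SPRP cluster, named differentiated keratinocyte-like with KRT1 at 5011 and 6514 CPM, came next after the MMP3 cluster with 4707 and 3695. The KRT15 cluster, named epidermal stem-like, had 1856 and 1522. S100A10 followed the same order at both ends, with 2140 and 2790 in the MMP3 cluster and 512 and 508 in the KRT1 cluster. It too was higher in the SPRP cluster (1891 and 2439) than in the KRT15 cluster (1022 and 1239). S100A6 was highest in the SOX9 and PTHLH cluster (1487 and 2337) and lowest in the KRT1 cluster (350 and 490). S100A11 was highest in the KRT1 cluster, with 1701 and 2328, and lowest in the SOX9 cluster, with 712 and 1082. Its order was thus reversed at both ends against S100A6, and only at the KRT1 end against S100A2 and S100A10. The KRT1 cluster had KRTDAP, a late keratinocyte gene, at 9485 and 9604 CPM, against 31.9 and 39.1 in the MMP3 cluster.

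**Figure D2:**
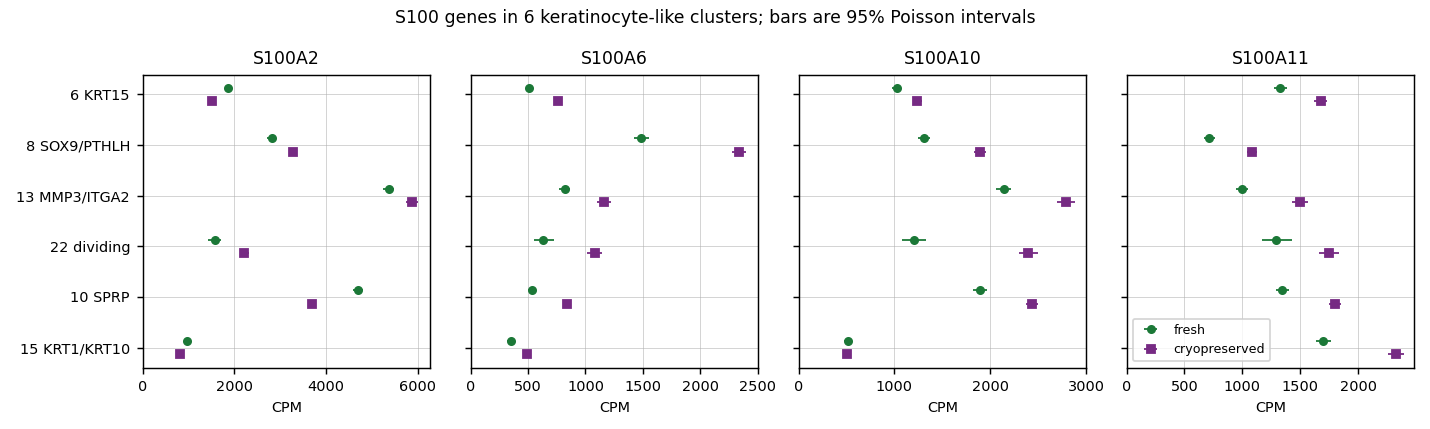
CPM of 4 members in 6 keratinocyte-like clusters, named by number and leading genes, with green circles for the fresh and purple squares for the cryopreserved library and bars for 95% Poisson intervals. S100A2, S100A6 and S100A10 are lowest in the KRT1 and KRT10 cluster in both libraries, and S100A11 is highest there.

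Another split, also chosen after the values had been seen, used KRT1 in place of cluster borders. It covered differentiated keratinocyte-like cells only, the class of the KRT1 and SPRP clusters, and left out epidermal stem-like cells. Drawn from the same keratinocyte-like cells, it adds no separate support. Differentiated keratinocyte-like cells were divided into 4 groups of nearly equal size by the share of their UMIs from KRT1. From the lowest to the highest group, S100A2 went from 5508 to 1032 CPM (fresh) and from 4337 to 834 (cryopreserved). S100A6 went from 654.5 to 138 and from 1091 to 292, and S100A10 from 2055 to 427 and from 2936 to 446. S100A11 went from 1235 to 1748 and from 1946 to 2311. S100A6 and S100A10 fell at each step in both libraries, as did cryopreserved S100A2. Fresh S100A2 did not, with 2620 and 2955 in the middle groups. S100A11 was nearly level over the middle groups, with 1517 and 1507 (fresh) and 1899 and 1935 (cryopreserved), and its cryopreserved rise lay in the last group only. KRT1 itself took 113 and 193 CPM in the lowest group and 30694 and 39734 in the highest.

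S100A12 and S100A8 were rare. Of 616 S100A12 UMIs within the maxima, 594 (96.4%, 94.6 to 97.75) lay in keratinocyte-like cells. This interval takes each UMI as a separate count, although a few cells held most of them, so it is too narrow for a share over cells. In the fresh library 18 cells (0.649%) held 83 UMIs, and in the cryopreserved library 43 cells (1.02%) held 533. Among keratinocyte-like cells 13 of 530 (2.45%) and 34 of 1058 (3.21%) had a UMI, against 5 of 2245 and 9 of 3165 other cells (0.223% and 0.284%). S100A8 had 13 UMIs in 6 fresh cells and 12 UMIs in 6 cryopreserved cells. Of these, 12 fresh and 7 cryopreserved UMIs lay in keratinocyte-like cells, and the other 5 cryopreserved UMIs lay in 2 CD163/CD209 myeloid-like cells of the MARCO cluster. None of its UMIs lay in the 1135 fresh or 1477 cryopreserved fibroblast-like cells, which allows a share of cells with an S100A8 UMI of up to 0.264% and 0.203% and sets no limit on cells that express it.

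A few cells carried most of the S100A12. In the cryopreserved library the cell with most held 284 of the 533 UMIs (53.3%), and the next 2 held 105 and 56, so that 5 cells held 87.4%. In the fresh library the leading cells held 18, 14 and 11 UMIs, and 5 cells held 67.5% of 83. The cryopreserved cells with 284 and 105 UMIs were differentiated keratinocyte-like, with 207 and 100 KRT1 UMIs and 255 and 191 KRTDAP UMIs. Both had 0 UMIs of S100A2 and 0 of S100A6, and 31 S100A11 UMIs each. The cell with 56 UMIs was epidermal stem-like, of the SOX9 and PTHLH cluster. Depths of these 3 cells were 19055, 16888 and 15230 UMIs, their doublet scores were 0.01505, 0.0164 and 0.0109 against a library median of 0.0157, and none was called a doublet. The fresh cells with 18, 14 and 11 S100A12 UMIs had 0, 104 and 109 S100A2 UMIs. Of all keratinocyte-like cells with S100A12, 12 of 13 fresh and 25 of 34 cryopreserved ones had an S100A2 UMI. These shares were 92.3% and 73.5%, against 91.5% and 89.8% of the keratinocyte-like cells without S100A12.

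Barcodes outside the maxima held many S100A12 UMIs as well. The 600 fresh and 191 cryopreserved barcodes above the limit on genes or UMIs held 333 and 395, in 12 and 11 barcodes. The fresh barcode with most held 219 S100A12 UMIs and 16 S100A8 UMIs among 18785, with 270 KRT5 UMIs, and the next held 83. Barcodes above the mitochondrial limit alone held 2 S100A12 UMIs in each library and no S100A8 UMI. Over all barcodes the fresh library thus had 418 and the cryopreserved library 930 S100A12 UMIs.

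Some cells held both calgranulins. Of the 6 cells with an S100A8 UMI in each library, 4 fresh and 3 cryopreserved ones also had S100A12, which was in 0.506% and 0.948% of all cells without S100A8 and in 1.905% and 3.04% of such keratinocyte-like cells. Of the cells with S100A12, 4 of 18 (22.2%) and 3 of 43 (6.98%) had S100A8. Markers of neutrophils, the cells best known for these genes, were sparse. Of 9 listed, 6 were found by symbol, with 349 UMIs in all (fresh) and 258 (cryopreserved), most of them from ELANE (321 and 206). CSF3R had 15 and 32 UMIs, LTF 7 and 10, and MPO 0 and 1. ELANE had 24.05 and 8.03 CPM in CD163/CD209 myeloid-like cells and 17.55 and 11.3 in fibroblast-like cells. In each of the 10 cells ranked highest for S100A12 within the maxima, all keratinocyte-like, 0 of the 6 had a UMI. With so few UMIs of these markers, this 0 says little about neutrophils. Outside keratinocyte-like cells, the MARCO cluster had 4 S100A12 UMIs in 2 of 13 fresh cells and 11 in 5 of 44 cryopreserved cells, or 32.6 and 31.3 CPM. By cells, a UMI was thus more frequent in this small cluster than in keratinocyte-like cells (13 of 530 and 34 of 1058), a difference that was not tested. By level it also stood above both fresh keratinocyte-like classes (13.3 CPM differentiated, 7.71 epidermal stem-like). The cryopreserved classes had 100.9 and 14.2 CPM in that order, and 284 of the 427 UMIs behind the 100.9 lay in 1 cell.

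**Figure D3:**
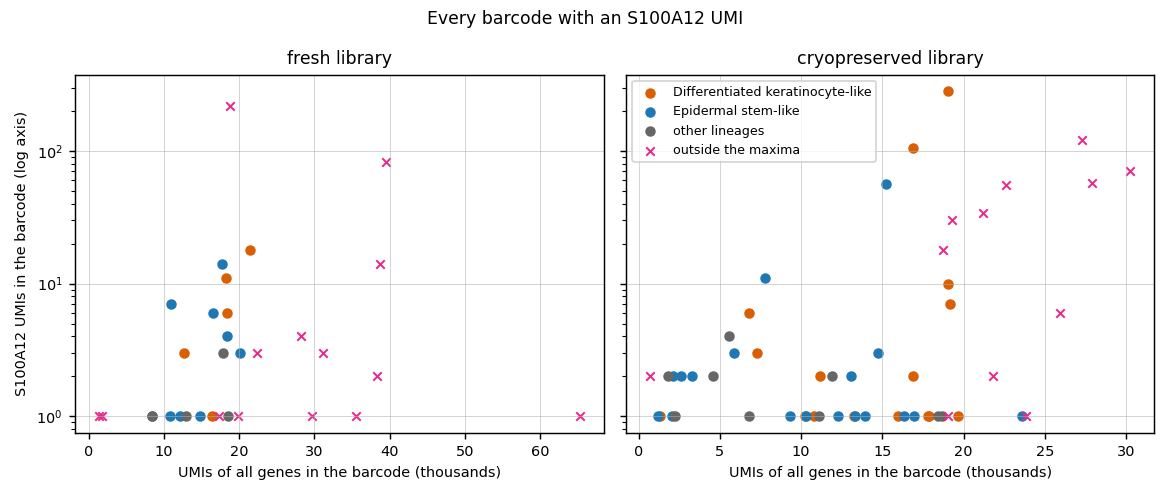
Each point is a barcode with an S100A12 UMI, with its UMIs of all genes in units of 1000 on the x axis and its S100A12 UMIs on a log y axis, in the fresh (left) and cryopreserved (right) library. Circles are cells within the maxima, coloured by lineage, and crosses are barcodes outside them. The highest circle is the cryopreserved cell with 284 UMIs and the highest cross the fresh barcode with 219.

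The other members were spread over many cells. The cell with most UMIs held 1.59% and 1.21% of the S100A2 UMIs, 0.730% and 0.720% of S100A4, 0.522% and 0.598% of S100A6, 0.471% and 0.380% of S100A10 and 0.345% and 0.272% of S100A11. The top 1% of cells, 28 fresh and 42 cryopreserved, held 27.2% and 20.9% of S100A2 but 6.40% and 6.88% of S100A10. The number of cells that held 50 percent of the UMIs was 70 and 148 for S100A2, 175 and 248 for S100A4, 330 and 480 for S100A6, 472 and 719 for S100A10 and 367 and 623 for S100A11. For S100A12 it was 3 cells and 1 cell.

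**Figure D4:**
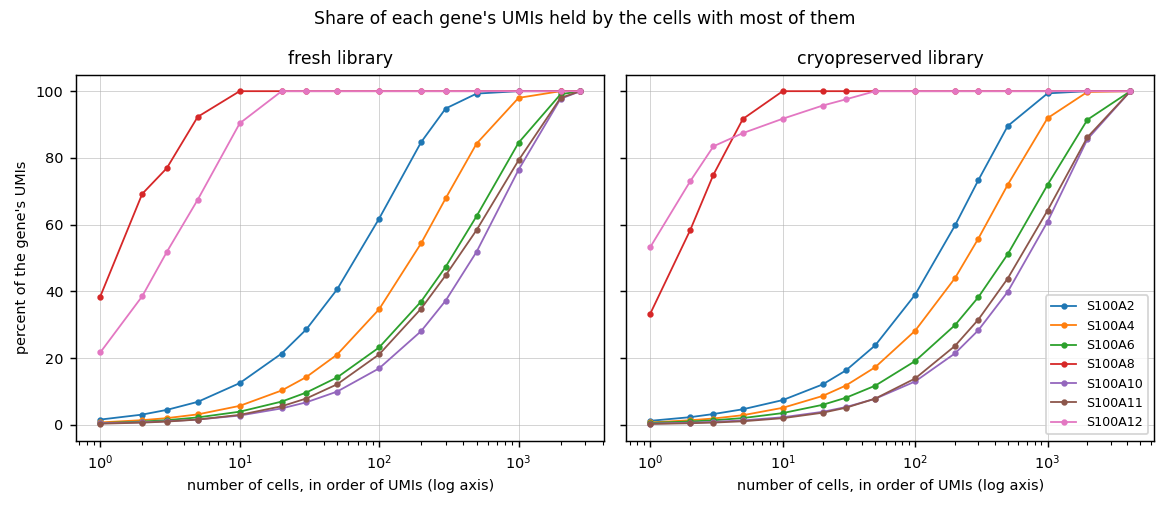
Percent of each gene's UMIs (y axis) held by the given number of cells with most of them (log x axis), for 7 members in each library. The curves of S100A8 and S100A12 start highest, S100A2 and S100A4 follow, and S100A6, S100A11 and S100A10 reach 50 percent only with 330 cells or more.

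Between the whole libraries, scaled with trimmed mean of M values (TMM) factors, the members were mostly higher in the cryopreserved library. S100A11 had 567 CPM (fresh) and 894 (cryopreserved), a log2 ratio of 0.66 (0.63 to 0.68). S100A10 had 1455 and 2048 (0.49, 0.48 to 0.51), S100A6 2185 and 3024 (0.47, 0.46 to 0.48), S100A4 1260 and 1530 (0.28, 0.26 to 0.30) and S100A2 728 and 845 (0.21, 0.19 to 0.24). S100A12 had 2.54 and 14.7 CPM, a log2 ratio of 2.54 (2.20 to 2.89). The S100A8 ratio of -0.26 had an interval from -1.52 to 0.99.

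Of the 7 members, 6 had the 200 UMIs over both libraries that were required for counting. Among these, 1 was at least 2-fold higher in the cryopreserved library, against 0.753% of 11692 genes, and 0 were at least 2-fold lower, against 0.316%. A log2 ratio of 0.25 or more was reached by 5 of the 6, against 26.6% of the genes, and the median of the 6 was 0.48 against 0.03 for all genes. The one past 2-fold, S100A12, had a log2 ratio of 1.79 without the cell with most UMIs in each library, 1.16 without the top 5 and 1.496 over all barcodes.

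For S100A2 the whole-library ratio and the ratios within both keratinocyte-like classes had opposite signs. In differentiated keratinocyte-like cells its log2 ratio was -0.22 (-0.26 to -0.18), and in epidermal stem-like cells -0.04 (-0.07 to -0.01). The 6 finer keratinocyte-like clusters were divided: S100A2 was higher in the cryopreserved library in the MMP3, SOX9 (2814 and 3269 CPM) and dividing (1569 and 2214) clusters and lower in the KRT1, KRT15 (1856 and 1522) and SPRP (4707 and 3695) clusters. With the share of each lineage in the UMIs held equal in both libraries, an alternative added after seeing the data, the log2 ratio was -0.09, against 0.21 as measured. Ratios with equal shares were scaled by total UMIs and not by TMM factors, so scaling is part of the difference. The 2 keratinocyte-like classes held 24.0% and 29.0% of the UMIs. For the other members with 200 UMIs the ratio with equal shares stayed above 0, at 0.27 for S100A4, 0.49 for S100A6, 0.46 for S100A10, 0.49 for S100A11 and 2.20 for S100A12.

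S100A6 and S100A10 were higher in the cryopreserved library in each of the 10 lineages, and each of their intervals lay above 0. The log2 ratio of S100A6 ran from 0.19 in Langerhans or dendritic-like cells to 1.03 in endothelial-like cells, where it had 350.5 and 716 CPM. That of S100A10 ran from 0.38 in the same dendritic lineage to 0.81 in SMC-like cells. S100A11 was higher in 9 lineages, with 8 intervals above 0, and its exception was lymphatic-like cells at -0.08 (-0.53 to 0.37). Of 1446 genes with at least 50 UMIs in every lineage, 12.9% were higher in each of the 10 lineages and 21.7% in at least 9. 4 members were among these genes, with 2 and 3 of them reaching these counts. The median log2 ratio of the 1446 genes was below 0 in each lineage, with -0.05 as the lowest. Over the 19 clusters with at least 20 cells in each library, S100A6 and S100A10 were higher in 19 and S100A11 in 18. The share of all genes that reach such counts was not taken. The clusters are parts of the same lineages and libraries, so these counts add no separate support.

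S100A4 was less even. Its log2 ratio was 1.32 (1.08 to 1.55) in lymphatic-like cells, 0.67 in SMC-like cells and 0.64 in CD163/CD209 myeloid-like cells. In fibroblast-like cells, which held 49.7% and 40.6% of its UMIs, the ratio was only 0.07 (0.05 to 0.10). In endothelial-like cells it was -0.45 (-0.79 to -0.12), from 202 and 117 UMIs, of which 1 cell in each library held 50 and 14. Without the leading cell of each library this ratio was -0.23 and its interval (-0.61 to 0.14) held 0, while that of lymphatic-like cells was 1.29 (1.03 to 1.56). Among fibroblast-like clusters the WIF1, CCL19, CTHRC1 and SEMA3G clusters were higher in the cryopreserved library and the MYOC cluster was lower, with 152 and 76.7 CPM.

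**Figure D5:**
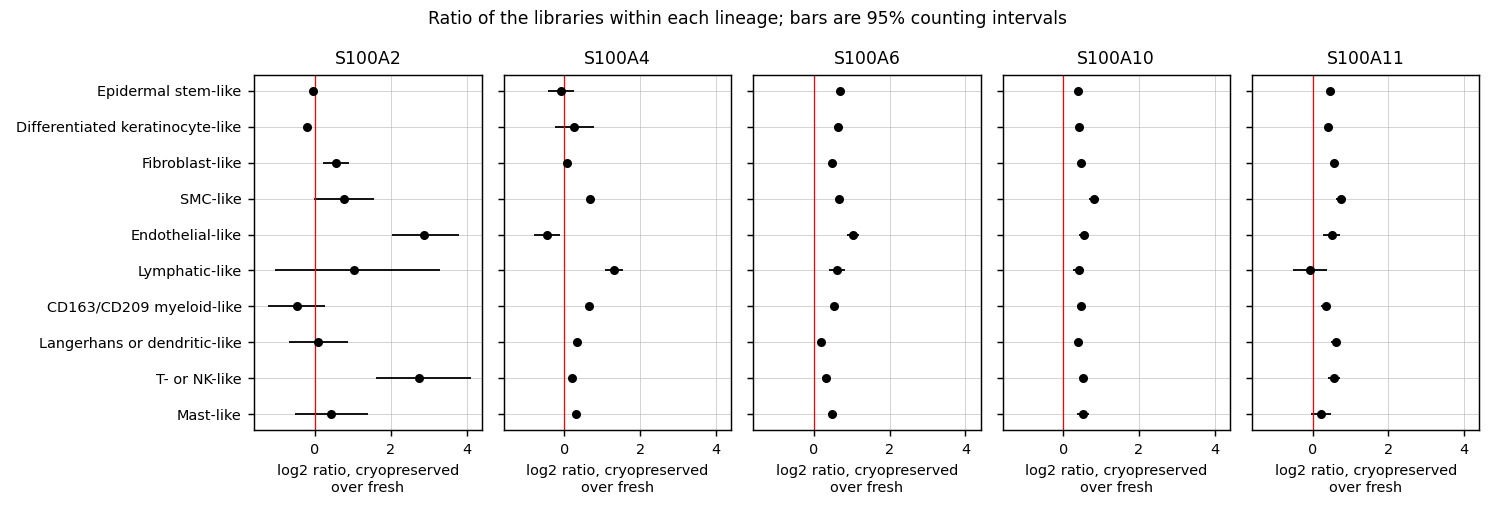
Log2 ratio of the cryopreserved over the fresh library within each of 10 lineages for 5 members, with bars for 95% counting intervals and a red line at 0. All 10 points of S100A6 and of S100A10 lie to the right of the line, and both keratinocyte-like points of S100A2 lie to its left.

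Partners and receptors were read from a list of 10 genes, of which 7 were found by symbol and 6 had 200 UMIs. Of these 6, 0 were 2-fold higher or lower. ANXA1 had a log2 ratio of 0.49 (0.48 to 0.51), ANXA2 0.31 (0.29 to 0.33), TLR4, a receptor for S100A8, 0.19 (0.02 to 0.36), and ANXA6 -0.18 (-0.26 to -0.11). TLR4 was highest in CD163/CD209 myeloid-like cells with 96.9 and 92.8 CPM. AGER, the receptor for several S100 proteins, had 64 and 86 UMIs. CACYBP, the S100A6 partner, had 82.4 and 90.1 CPM.

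Of 17 late epidermal and neighbouring genes, 9 were found and 5 had 200 UMIs. All 5 had a whole-library ratio above 0, against 53.5% of the 11692 genes, from 0.30 for DSG1 to 0.80 for SBSN, with a median of 0.39, and 0 of them passed 2-fold. Within differentiated keratinocyte-like cells, which held 9.10% and 11.54% of the UMIs, KRTDAP had 6302 and 5986 CPM, DSG1 1015 and 994, DSC1 403.5 and 402.5, SPRP 533 and 537 and SBSN 318 and 415. In epidermal stem-like cells KRTDAP had 186 and 353 CPM, SPRP 18.3 and 63.0 and SBSN 28.35 and 47.55. There DSC1 had 53.4 and 59.1 and DSG1 332 and 315. Of 7 keratins of activated or follicle epidermis, 2 were found and only KRT79, a keratin of the follicle, had 200 UMIs, with 73 and 308 and a log2 ratio of 1.93. Of the 6 other S100 genes found, 3 had 200 UMIs. S100A3 (270 and 375 UMIs) had 24.8 and 30.2 CPM in epidermal stem-like cells and 26.9 and 18.4 in differentiated keratinocyte-like cells. S100A1 (149 and 204) was highest in T- or NK-like cells with 73.4 and 100.2, although the S100A13 gene overlaps it. S100A5 (132 and 509) was highest in fibroblast-like cells, and 216 of its 509 cryopreserved UMIs (42.4%) lay in 1 cell of the SEMA3G cluster.

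Over the 19 clusters with at least 20 cells in each library, the genes outside the family whose levels were most like those of a member were listed. The measure was Pearson's r of log2(CPM + 1), with the levels of both libraries averaged before r was taken, among genes with 200 UMIs, and it is a description of points that share libraries and depths. For S100A2 they were ZDHHC18, LAMB3 and EDN2 (r of 0.98, 0.98 and 0.97), and EDN2 had 0.82 in the fresh library alone. For S100A6 they were EMP3 (0.86), CISD3 and RAB32 (0.83 each). For S100A10 they were KCNAB3 (0.89), OCEL1 (0.87) and OSTC (0.86), and for S100A11 IDH3A (0.92) and RXRA (0.91) led, followed by a gene without a symbol. KRT79 was among those of S100A12 (0.91), with 0.59 for fresh and 0.91 for cryopreserved cells alone, values that rest on few cells. The 3 nearest S100A4 carry no symbol in the files, with r between 0.89 and 0.93. For S100A8, with 25 UMIs, ADCK2, CXCL11 and RASSF6 led, and at this depth no likeness can be read from them.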

How the data were processed

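Single cells of pig skin, 1 fresh and 1 cryopreserved library, were profiled with a 10x Genomics 3′ kit. The authors deposited UMI counts per gene and barcode for each library, without normalization, made per the submitters' processing notes with Cell Ranger 4.0.0 and STAR 2.5.1b on Sscrofa11.1. Barcodes with at most 4500 genes, 30000 UMIs and 10% mitochondrial UMIs were kept. Doublets had been removed by scatter in the sort, and Scrublet (scanpy 1.11.5) called 3 fresh and 35 cryopreserved cells, which were kept. Cells were clustered with Seurat 5.3.0 (anchors on 2000 features without S100 genes, 30 dimensions, resolution 0.8) into 23 clusters, of which 20 were named from marker lists (3 or more markers in at least 10% of cells and 2-fold higher) and 3 stayed unnamed. The members, marker lists and gene lists were chosen with earlier results of these data known.

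Counts were summed per library or lineage. Whole libraries were scaled with edgeR 4.0.16 TMM factors, and lineages by their total UMIs. No test was possible with 1 library per condition, so ratios carry exact conditional binomial intervals, levels Poisson intervals and shares exact Clopper-Pearson intervals, all at 95% and for counting error only. A count of 0 was taken to allow 3 counts. Genes named in the text were the members, the other S100 genes, the partner, late epidermal and keratin lists, and the 3 genes most like each member. The ratio and its interval were tested on simulated library sums with counting error only. These lacked the uneven spread of UMIs over cells seen here, so the intervals were not tested for it. Alternatives were total UMIs, DESeq2 1.42.0 size factors, other sets of cells, other clusterings and other thinning. The upstream window of S100A11 is not reported here.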

Additional observations from a re-analysis of the deposited data

Results flagged for a closer look

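The ratio of the libraries differed between lineages for 2 members, with counting intervals on opposite sides of 0. The difference between lineages was not tested, since each condition has 1 library. S100A4 had a log2 ratio of 1.32 in lymphatic-like cells, with 236 fresh and 435 cryopreserved UMIs, and of -0.45 in endothelial-like cells, with 202 and 117. Without the leading cell of each library the S100A4 values were 1.29 and -0.23, and the interval of the second (-0.61 to 0.14) held 0. S100A2 had a log2 ratio of 2.87 in endothelial-like cells, with 14 and 81 UMIs, and of -0.22 in differentiated keratinocyte-like cells, with 8567 and 10601. In the endothelial-like cells 68 of the 81 cryopreserved S100A2 UMIs came from 1 cell, and without the leading cell of each library the levels were 8.34 and 10.5 CPM.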

How the results depend on the processing

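No paired analysis was possible because each condition has 1 library and the labels give no replicate numbers. Log2 ratios are of the cryopreserved over the fresh library. The S100A2 ratio turned to -0.0927 with lineage shares held equal. This alternative, chosen after seeing the data and scaled by total UMIs, gave 0.49 for S100A6, 0.46 for S100A10, 0.49 for S100A11 and 2.20 for S100A12. Scaled by total UMIs, the ratios were 0.18 for S100A2, 0.24 for S100A4, 0.43 for S100A6, 0.45 for S100A10 and 0.62 for S100A11. Over all barcodes they were 0.13, 0.43, 0.41, 0.42 and 0.57 in that order, and 1.496 for S100A12. Without the mitochondrial limit they were 0.30, 0.33, 0.49, 0.54 and 0.70. Without the highest doublet scores S100A4 had 0.25 and S100A6 0.43. S100A12 had 1.79 without the leading cell and 1.16 without the top 5, where S100A2 had 0.25. Over all barcodes the top cell held 1.04% of cryopreserved S100A2, 1.37% of fresh and 1.15% of cryopreserved S100A4, 0.604% of fresh S100A6, 0.486% of fresh S100A11, and 52.4% of fresh and 30.5% of cryopreserved S100A12. Merged without integration, S100A8 had a ratio above 0 in 1 lineage, the CD163/CD209 myeloid-like cells. In the main clustering these cells had 0 fresh and 5 cryopreserved S100A8 UMIs, so no ratio was taken there. The share of genes at least 2-fold higher was 1.78% with a minimum of 50 UMIs and 9.68% with any UMI, and the share 2-fold lower 1.05% and 10.8%. Another 85 such values stayed within their counting interval or, for counts, within 1.5 times. Of the remaining values in the same check, 48 moved past these limits and 145 did not. In fibroblast-like cells the S100A4 ratio of 0.07 became 0.136 with TMM factors within the lineage and 0.0192 merged without integration. In differentiated keratinocyte-like cells the S100A2 ratio of -0.22 became -0.28 and -0.14 in that order. The causes were not tested. S100A8 was limited by its 25 UMIs.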
